A study of Mus musculus with 6 samples.

Results

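ATP-dependent chromatin remodelers are molecular machines that use ATP to slide, eject or exchange nucleosomes. Each is built around an ATPase of the SNF2 family, and they fall into the SWI/SNF (BAF), ISWI, CHD and INO80 families, with accessory subunits that set where the machine acts and what it does there. Many subunits are encoded by paralogs that replace each other in the complex, and the choice of paralog is known to shift as stem cells differentiate. Here the genes were chosen by symbol alone: every row of the deposited expression table whose symbol begins with Smarc, Arid and a digit, Chd and a digit, Ino80, Actl6, Baz1, Baz2 or Ruvbl, or equals Actr5, Actr8, Pbrm1, Brd7, Brd9, Dpf1 to Dpf3, Mta1 to Mta3, Mbd3, Rbbp4, Rbbp7, Hells or Atrx. The rule found 64 of 24672 genes and used no measured value. It takes in 7 ARID genes (Arid3a to Arid5b) that are not subunits of a remodeler. The pseudogene Smarca5-ps and Ino80dos, an antisense gene of Ino80d, are also included. The rule leaves out partners and further SNF2-family ATPases with other names, which are described at the end.

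The table gives the RNA of 6 mouse samples, 3 libraries of FGSC, female germline stem cells by their labels, and 3 of differentiated cells (Dif-FGSC), from C57BL/6 cells beyond passage 20. FGSC were kept on inactivated STO fibroblasts in medium with 10% serum, 10 ng/mL LIF, 20 ng/mL EGF, 10 ng/mL bFGF and 10 ng/mL GDNF. Dif-FGSC were grown on inactivated granulosa cells in medium with 10% serum, retinoic acid at 0.1 µmol/L, BMP4 at 10 ng/mL and bFGF at 10 ng/mL, so feeder cells, growth factors and retinoic acid differed together and cannot be told apart. The series title names chromatin structure and the start of meiosis as the question. The sources used here give neither the time in differentiation medium nor the number of cell lines. No label says whether replicate libraries stem from separate cultures, and every p-value reflects the scatter among the libraries alone, possibly a technical one. The columns of the table are named con and dif, and con was read as FGSC, on which every direction rests.

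Values are FPKM, fragments scaled to transcript length and library depth, which puts different genes on 1 scale, with a limit for the genes with extra digits described below. The steps between low values implied 17.4 to 26.9 M fragments per library. Markers of the labelled cell type were nearly absent: of 10 germ cell markers 9 stayed below 0.1 FPKM in every library, among them Ddx4, and Dazl was at 0. The 10 summed to 0 to 0.0588 FPKM in FGSC and 0.475 to 0.835 in Dif-FGSC, most of it Zbtb16. Fibroblast feeder markers summed to 0.372 to 0.700 and 0.208 to 0.254 FPKM, with Col3a1 and Lum at 0, and granulosa markers to 0.663 to 0.849 and 0.489 to 0.707 FPKM, with Foxl2 and Fshr at 0. The 10 blood and mast cell markers, by contrast, summed to 696 to 749 FPKM in FGSC and 941 to 944 in Dif-FGSC. Of the 6 tested genes 5 were higher (Ptprc, Laptm5, Gata2, Kit and Srgn). The sixth, the mast cell protease gene Cpa3, was high in both groups and not called. It stood at 288 ± 19.0 FPKM in FGSC and 301 ± 10.5 in Dif-FGSC (SD, n = 3). Among the untested genes Tpsb2 was at 0, Fcer1a nearly so, and Ms4a2 and Hdc did not exceed 0.174 and 0.149 FPKM. Of 12 proliferation genes 6 were lower and 4 higher, and their sum was 1372 to 1380 FPKM in FGSC and 1190 to 1201 in Dif-FGSC. The part of these shifts in the results below was not tested. In bulk RNA, fewer cells of a type and less RNA per cell cannot be told apart. FGSC and Dif-FGSC name the libraries by their labels from here on.

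In these libraries the remodelers were broadly transcribed. Of the 64 genes, 54 had a mean of at least 1 FPKM and were tested with limma on log2(FPKM + 1), among 9162 genes in all. Their mean levels ran from 1.32 FPKM for Smarca2 to 195 FPKM for Rbbp7, with a median of 16.7 FPKM, against 10.4 FPKM over all genes tested. At a Benjamini-Hochberg adjusted p under 0.05, 22 of the 54 were higher in Dif-FGSC, 10 were lower and 22 were not called. Over all genes tested 36.5% were called higher and 28.6% lower, 65.1% together, and among the remodeler genes the shares were 40.7%, 18.5% and 59.3%. The groups did not overlap for 38 of the 54 genes (70.4%), and over all genes for 70.7%. The remodeler genes were called about as often as other genes. Their median log2 difference was 0.07 against 0.03 over all genes. The balance of directions depended on scaling: median-ratio scaling gave 19 higher and 13 lower, and quantile normalization 18 and 16. Of the 32 calls, 24 held in every alternative that tested the gene, of 14 alternatives run.

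Most of these differences were small. The added 1 in log2(FPKM + 1) makes a change look smaller in a gene of low level, and ratios are of mean FPKM. A log2 difference of at least 0.5 was called for 6 genes that were higher (Arid1a, Ino80d, Mta1, Chd4, Smarca4 and Smarcc1) and for 2 that were lower (Atrx and Hells). Over all genes tested, 9.78% were called higher and 4.35% lower by this much.

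**Figure D1:**
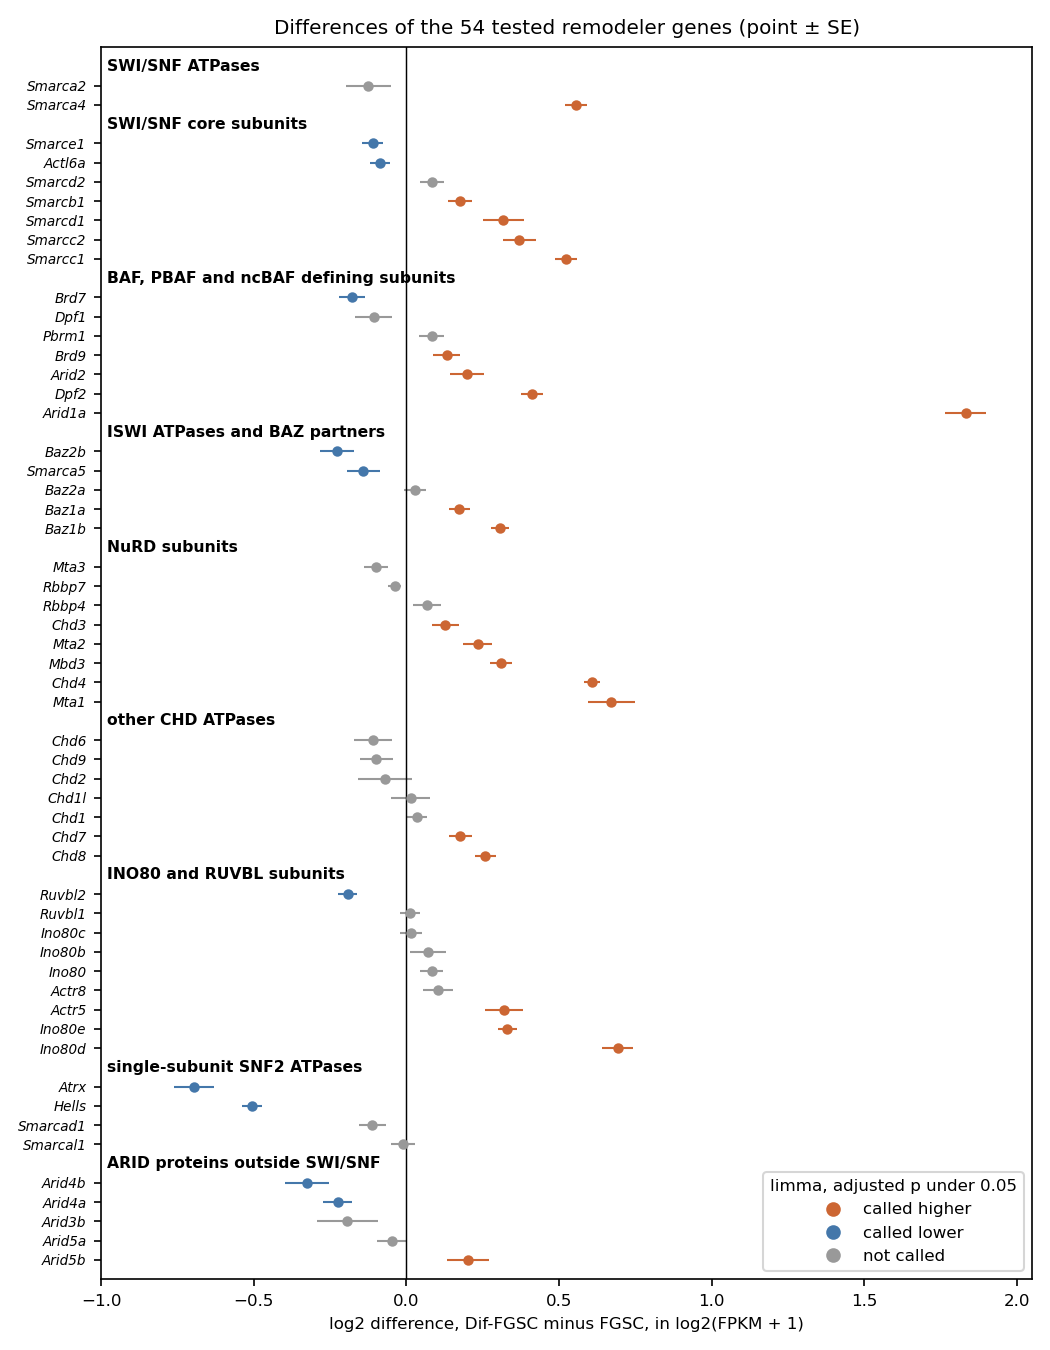
Log2 difference of each tested remodeler gene (horizontal axis, Dif-FGSC minus FGSC in log2(FPKM + 1), n = 3 libraries a group), grouped by role, with points for the estimate, bars for the standard error and colours for the limma call. Arid1a lies at 1.83, apart from the other genes, which lie between -0.70 and 0.69.

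The promoters of 7 of the 8 genes called at a log2 difference of 0.5 or more in either direction are shown first, because these genes carry the results that follow. Ino80d did not match the promoter table. The windows come from RefSeq (build GRCm38.p6), whereas the submitters' processing notes name mm9, so the positions below apply to GRCm38.p6. Of the 64 genes, 49 matched the table by symbol, with 58 windows of 250 bases before to 50 after a start. Each line gives the 100 bases before an annotated start, 5′ to 3′ on the gene's strand, for both starts of Arid1a and for 1 of 2 starts of Chd4. Capitals mark matches, on either strand, to the GC box GGGCGG, the CCAAT box CCAAT, an E2F site TTTCCCGC or an ETS site CCGGAAG. In the second Arid1a stretch a GC box and the E2F site overlap. A match describes the letters and is not evidence of binding.
Arid1a, upstream start (chr4:133756770-133756869, minus strand): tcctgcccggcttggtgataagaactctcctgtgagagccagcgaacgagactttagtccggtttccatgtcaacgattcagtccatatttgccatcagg
Arid1a, downstream start (chr4:133753986-133754085, minus strand): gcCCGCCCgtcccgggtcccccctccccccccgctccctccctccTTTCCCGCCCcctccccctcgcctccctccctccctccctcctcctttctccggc
Smarca4 (chr9:21616069-21616168, plus strand): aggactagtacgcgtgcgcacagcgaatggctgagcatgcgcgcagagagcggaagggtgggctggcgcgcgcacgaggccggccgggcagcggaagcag
Smarcc1 (chr9:110131924-110132023, plus strand): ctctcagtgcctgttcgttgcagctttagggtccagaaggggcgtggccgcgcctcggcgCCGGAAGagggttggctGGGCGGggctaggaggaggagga
Chd4 (chr6:125095881-125095980, plus strand): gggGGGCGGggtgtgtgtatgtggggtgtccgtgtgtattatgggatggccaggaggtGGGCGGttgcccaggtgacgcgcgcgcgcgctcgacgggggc
Mta1 (chr12:113098178-113098277, plus strand): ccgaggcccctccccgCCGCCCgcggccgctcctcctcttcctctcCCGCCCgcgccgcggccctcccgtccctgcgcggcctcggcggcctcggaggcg
Hells (chr19:38930890-38930989, plus strand): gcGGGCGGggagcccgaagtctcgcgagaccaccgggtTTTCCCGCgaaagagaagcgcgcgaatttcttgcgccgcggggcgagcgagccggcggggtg
Atrx (chrX:105929373-105929472, minus strand): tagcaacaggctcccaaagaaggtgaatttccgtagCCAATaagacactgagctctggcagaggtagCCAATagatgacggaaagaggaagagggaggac

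The stretches differ in their CG dinucleotides, with 18 in those of Hells and Mta1, 14 in that of Smarca4 and 5 and 7 in those of Arid1a. That of Atrx holds 2, with a CCAAT box at both capitalised places and no GC box. Over the full windows of 300 bases, the 58 remodeler promoters held a median of 25 CG dinucleotides, against 22 in 9212 promoters of genes tested and 7 in all 32851 promoters of the table. A GC box was found in 79.3% of the remodeler windows, 65.9% of windows of genes tested and 35.7% of all windows. The E2F letters TTTCCCGC were found in 4 of 58 windows (6.9%), 2.34% of windows of genes tested and 1.07% of all. A second E2F form, TTTGGCGC, was found in 0 of 58 windows, 1.1% of windows of genes tested and 0.514% of all. CCAAT was found in 41.4%, 38.4% and 37.4%, and CCGGAAG in 13.8%, 20.7% and 8.86%. The other motifs searched were TATAAA (8.62%, 6.25% and 13.6%), the E box CACGTG (5.17%, 10.7% and 7.15%) and TGACGTCA (1.72%, 3.44% and 1.79%). The windows of remodeler genes called higher held a median of 28 CG dinucleotides (20 windows, range 7 to 50). Those of remodeler genes called lower held 17.5 (8 windows, range 5 to 34). The same split was not made over all genes tested, so it is not known whether this difference is particular to remodeler genes.

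SWI/SNF complexes contain either Smarca4 (BRG1) or Smarca2 (BRM) as the ATPase. Smarca4 stood at 10.2, 10.1 and 9.82 FPKM in FGSC and at 15.6, 15.0 and 15.0 in Dif-FGSC. All 3 Dif-FGSC libraries lay above all 3 FGSC libraries, a rise of 1.52 times (log2 difference 0.56 ± 0.035 SE, limma adjusted p = 9.34e-06). Smarca2 was the lowest tested remodeler gene, at 1.62, 1.20 and 1.43 FPKM in FGSC and 1.27, 1.15 and 1.22 in Dif-FGSC, with overlapping groups and no call (limma adjusted p = 0.17). Smarca4 made up 86.3%, 89.3% and 87.3% of the summed level of the pair in FGSC and 92.5%, 92.9% and 92.5% in Dif-FGSC. The share was higher in every Dif-FGSC library, by 4.98 percentage points in the mean. An exact permutation test of 3 libraries against 3 cannot give a p below 0.1, which is the value here and for every share whose groups do not overlap (0.142 after Benjamini-Hochberg adjustment over 34 shares).

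Core subunits of SWI/SNF are shared between its forms, though not each of them by every form. The filter left 7 of 9 core genes, and 4 rose and 2 fell, with a median log2 difference of 0.18. The share called was 85.7%, against 65.1% over all genes tested. The count of 2 rested on calls near the threshold: it was 0 without any 1 of the Dif-FGSC libraries and 1 without any 1 of the FGSC libraries. Smarcc1 (BAF155), the leading scaffold subunit, rose from 44.1, 41.5 and 41.3 FPKM in FGSC to 60.5, 60.2 and 62.7 in Dif-FGSC, or 1.45 times (log2 difference 0.52 ± 0.035 SE, limma adjusted p = 1.36e-05). Its paralog Smarcc2 (BAF170) rose from 8.60, 8.99 and 9.98 FPKM to 12.4, 11.99 and 12.1, or 1.32 times (limma adjusted p = 0.000582). Neither gene's groups overlapped, and the share of Smarcc1 in their sum, 82.1% ± 1.58 (SD, n = 3) and 83.4% ± 0.407, overlapped between the groups. The scaffold pair rose together.

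Smarcd1 (BAF60A), which links the complex to transcription factors, rose from 20.0, 18.9 and 16.4 FPKM to 23.5, 23.4 and 22.6 (log2 difference 0.32 ± 0.067 SE, limma adjusted p = 0.0041). Smarcd2 (BAF60B) stood at 17.5 ± 0.728 and 18.6 ± 0.405 FPKM (SD, n = 3) and was not called. Smarcd3 (BAF60C), known from heart and muscle, was listed at 0 in all 3 FGSC libraries and at 0.872, 1.45 and 1.37 FPKM in Dif-FGSC, about 73.6, 107 and 102 fragments on the longest annotated transcript. Its mean was below the filter of 1 FPKM, so it was not tested, and a value of 0 in this table can be a failed estimate, so no fold is given. Within the 3 paralogs Smarcd2 had 48.8% ± 1.81 of the sum in FGSC and 43.3% ± 0.455 in Dif-FGSC (SD, n = 3), without overlap between the groups.

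Smarcb1 (SNF5), which contacts the nucleosome, rose from 27.2, 26.7 and 24.8 FPKM to 30.1, 29.4 and 29.7, or 1.13 times (limma adjusted p = 0.00575). Quantile normalization ended this call (adjusted p = 0.0655). Smarce1 and Actl6a went the opposite way. Smarce1 (BAF57) fell from 39.5 ± 1.46 to 36.6 ± 0.511 FPKM (SD, n = 3; limma adjusted p = 0.0243), a call lost in 5 of 14 alternatives. Actl6a (BAF53A), the actin-related subunit of dividing progenitors, fell from 64.8, 68.7 and 68.9 FPKM to 63.8, 63.9 and 62.5 (limma adjusted p = 0.0464). The Actl6a groups did not overlap but lay close, and the call was lost in 8 of 14 alternatives (adjusted p 0.012 to 0.132 over all of them). Actl6b, its counterpart in neurons, was listed at 0 in every library.

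Defining subunits sort SWI/SNF into the BAF form (Arid1a or Arid1b with Dpf1 to Dpf3), the PBAF form (Arid2, Pbrm1 and Brd7) and the non-canonical form (Brd9). Arid1a (BAF250A), a DNA-binding subunit of BAF, showed the largest difference of any remodeler gene tested. It stood at 9.03, 11.2 and 9.72 FPKM in FGSC and at 38.8, 38.0 and 37.2 in Dif-FGSC, a rise of 3.81 times (log2 difference 1.83 ± 0.068 SE, limma adjusted p = 9.9e-07). The lowest Dif-FGSC library was more than 3 times as high as the highest FGSC library. Under the alternatives the adjusted p of Arid1a ran from 3.07e-07 to 2.82e-05. Its paralog Arid1b did not exceed 0.152 FPKM, and Arid1a made up 98.9% or more of the pair in every library.

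The other BAF and PBAF genes moved much less than Arid1a. Dpf2 (BAF45D), a reader of histone tails, rose from 12.5, 12.2 and 11.8 FPKM to 16.9, 16.7 and 16.0 (log2 difference 0.41 ± 0.037 SE, limma adjusted p = 5.42e-05). Dpf1 (BAF45B), best known from neurons, stood at 5.39 ± 0.414 and 4.93 ± 0.278 FPKM (SD, n = 3) and was not called, and Dpf3 did not exceed 0.271 FPKM. Dpf2 had 68.7% ± 1.77 of the sum of the 3 Dpf genes in FGSC and 76.7% ± 1.26 in Dif-FGSC, without overlap.

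Among the PBAF genes, Arid2 (BAF200) rose from 9.94, 9.91 and 11.4 FPKM to 12.3, 12.1 and 11.9 (limma adjusted p = 0.015), a call lost after quantile normalization (adjusted p = 0.0876) and without FGSC replicate 2 (0.0514). Pbrm1 (BAF180), which carries several bromodomains, stood at 3.21 ± 0.0131 and 3.46 ± 0.0676 FPKM (SD, n = 3) and was not called (limma adjusted p = 0.105). Brd7 fell from 58.3, 57.5 and 54.4 FPKM to 48.8, 48.7 and 52.6 (log2 difference -0.18 ± 0.042 SE, limma adjusted p = 0.00717). Brd9 stood at 10.5 ± 0.281 FPKM in FGSC and rose to 11.6 ± 0.609 (limma adjusted p = 0.0332), a call lost under both other scalings. Of the 7 tested defining subunits 4 were higher (57.1%) and 1 was lower (14.3%), against 36.5% and 28.6% over all genes tested. After quantile normalization 2 were higher and 2 lower.

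Summed over the 16 tested SWI/SNF genes, the level was 344, 342 and 335 FPKM in FGSC and 399, 397 and 398 in Dif-FGSC, 16.8% more in the mean. Without Arid1a the sum was 8.87% more. The 7 defining subunits summed to 108 ± 1.49 and 137 ± 0.839 FPKM (SD, n = 3). Without Arid1a they summed to 99.5, 98.7 and 97.2 FPKM in FGSC and 97.7, 97.9 and 100.4 in Dif-FGSC. By the deposited values nearly all of the net difference was thus Arid1a. Among the rest the fall of Brd7 offset the rises of Dpf2, Arid2 and Brd9.

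**Figure D2:**
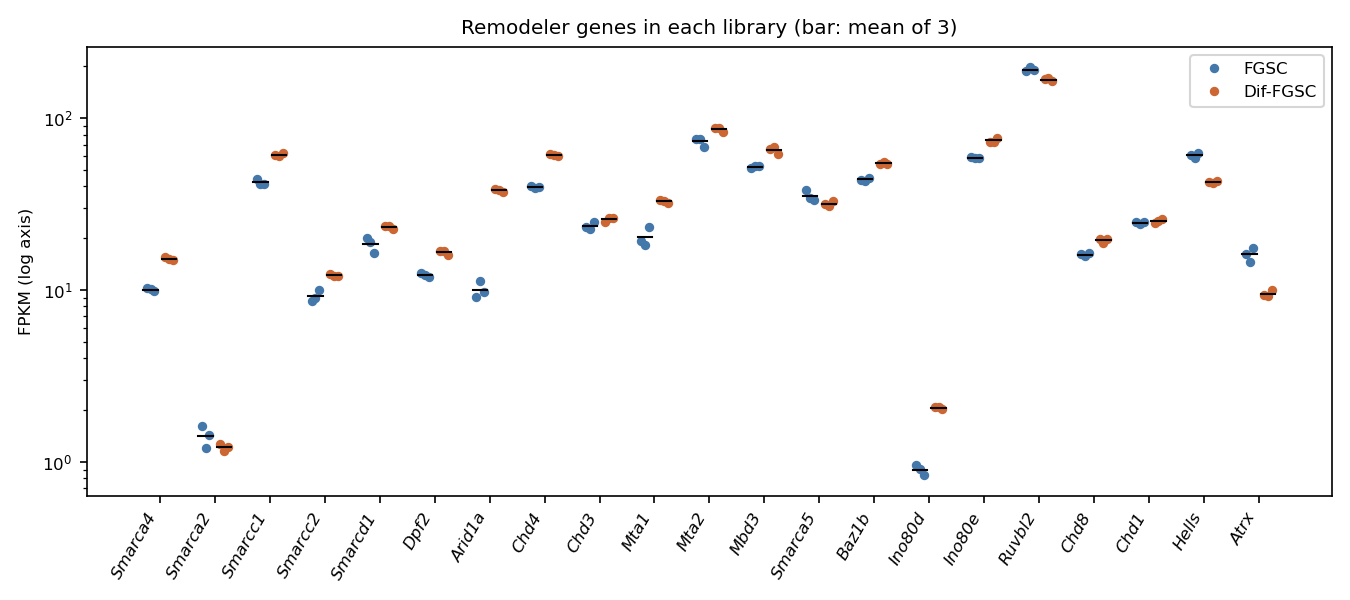
FPKM (log axis) of 21 remodeler genes in each of 3 FGSC (blue) and 3 Dif-FGSC (orange) libraries, with a bar at each group mean. Arid1a, Chd4, Smarca4 and Smarcc1 lie higher in every Dif-FGSC library, Hells and Atrx lie lower, and the Smarca2 and Chd1 libraries overlap.

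NuRD joins a CHD ATPase to histone deacetylases and is known for silencing genes as cells change fate. The filter left 8 of the 9 NuRD genes that the rule found, and 5 rose and none fell (median log2 difference 0.18). That is 62.5% higher, against 36.5% higher and 28.6% lower over all genes tested. Among the NuRD partners outside the rule, Hdac1, Hdac2 and Cdk2ap1 fell and Gatad2a and Gatad2b rose, as described at the end. Chd4, the leading ATPase, stood at 40.1, 39.1 and 39.6 FPKM in FGSC and 61.6, 60.5 and 60.4 in Dif-FGSC. The gap between the groups was wide against the spread within them, a rise of 1.54 times (log2 difference 0.61 ± 0.027 SE, limma adjusted p = 2.14e-06). Chd3 stood at 23.1, 22.5 and 24.7 FPKM and at 24.7, 26.3 and 26.1, with the highest FGSC library just above the lowest Dif-FGSC library. Its call (limma adjusted p = 0.0366) was lost in 7 of 14 alternatives, both other scalings among them (adjusted p 0.00884 to 0.279 over all of them). Chd4 made up 63.1%, 63.1% and 61.1% of the 3 NuRD ATPases in FGSC and 71.1%, 69.4% and 69.4% in Dif-FGSC, while Chd5, known from neurons and testis, did not exceed 0.457 FPKM.

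The MTA proteins tie the deacetylases into NuRD. Mta1 rose from 19.3, 18.3 and 23.1 FPKM to 33.2, 32.8 and 32.1, or 1.61 times (log2 difference 0.67 ± 0.077 SE, limma adjusted p = 0.000179). FGSC replicate 3 was the highest of its group, and the groups did not overlap. Mta2 rose from 75.6, 75.8 and 67.8 FPKM to 87.1, 87.5 and 83.3 (log2 difference 0.23 ± 0.048 SE, limma adjusted p = 0.00343), with FGSC replicate 3 the lowest library. Mta3 stood at 14.4 ± 0.626 and 13.4 ± 0.207 FPKM (SD, n = 3) and missed the threshold (limma adjusted p = 0.0568). Among the 3 paralogs Mta1 went from 18.8% ± 2.81 to 24.7% ± 0.236 of the sum and Mta3 from 13.4% ± 0.443 to 10.1% ± 0.200, both without overlap.

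Mbd3, the methyl-CpG-binding domain subunit, rose from 51.4, 52.3 and 52.7 FPKM to 65.7, 67.3 and 61.7 (log2 difference 0.31 ± 0.037 SE, limma adjusted p = 0.000231). The histone chaperones Rbbp4 and Rbbp7, which NuRD shares with Polycomb, ISWI and other complexes, were not called. Rbbp7 had the highest mean of the remodeler genes, though Ruvbl2 was above it in FGSC replicate 2, and stood at 199, 196 and 199 FPKM in FGSC and 192, 192 and 193 in Dif-FGSC (limma adjusted p = 0.16), and with median-ratio scaling it was called lower (adjusted p = 0.0217), while quantile normalization turned the sign of its small difference. Rbbp4 stood at 72.2 ± 4.77 and 75.5 ± 0.399 FPKM. The 8 genes summed to 500, 490 and 489 FPKM in FGSC and 553, 556 and 545 in Dif-FGSC, 11.9% more in the mean. With median-ratio scaling 4 members were higher and 2 lower.

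ISWI complexes space nucleosomes evenly. Their ATPase here was Smarca5 (SNF2H), since Smarca1 (SNF2L) was listed at 0 in 5 libraries and at 0.00313 FPKM in the other. Smarca5 stood at 38.0, 34.0 and 33.3 FPKM in FGSC and 31.4, 30.7 and 33.0 in Dif-FGSC. The groups nearly touched, and the call (log2 difference -0.14 ± 0.054 SE, limma adjusted p = 0.0494) was lost in 8 of 14 alternatives (adjusted p 0.0128 to 0.145 over all of them). The pseudogene Smarca5-ps, whose reads could be shared with Smarca5, did not exceed 0.204 FPKM.

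The BAZ proteins are the large partners of Smarca5. Baz1b (WSTF) rose from 43.6, 43.1 and 44.8 FPKM to 53.9, 55.4 and 54.0 (log2 difference 0.31 ± 0.029 SE, limma adjusted p = 6.9e-05). Baz1a (ACF1) rose from 32.8, 33.6 and 31.4 FPKM to 37.5, 36.9 and 36.2 (limma adjusted p = 0.00302). Both BAZ1 genes rose, whereas the ATPase they bind was not higher in any Dif-FGSC library than in the lowest FGSC library. Baz2a (TIP5), which acts at silent ribosomal genes, stood at 17.2, 17.2 and 18.4 FPKM and 18.2, 17.9 and 17.9, with overlap and no call. Baz2b fell from 3.32, 3.33 and 3.72 FPKM to 2.74, 2.69 and 2.97 (limma adjusted p = 0.00799). Of the 5 tested genes 2 were higher and 2 lower (40% each), against 36.5% and 28.6% over all genes tested.

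All 7 CHD ATPases outside NuRD were tested, and 2 were higher and none lower. The share called was 28.6%, against 65.1% over all genes tested. Chd8, which binds beta-catenin and promoters of active genes, rose from 16.2, 15.6 and 16.3 FPKM to 19.7, 18.8 and 19.7 (log2 difference 0.26 ± 0.035 SE, limma adjusted p = 0.000419). Chd7, the gene mutated in CHARGE syndrome, rose from 5.52, 5.65 and 5.70 FPKM to 6.52, 6.38 and 6.57 (limma adjusted p = 0.00367). Neither gene's groups overlapped.

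The other 5 CHD genes had no call. Chd1, which binds methylated H3K4 and keeps chromatin open in stem cells, overlapped between the groups, at 24.9, 24.3 and 24.6 FPKM and 24.6, 25.1 and 25.9 (limma adjusted p = 0.354). Chd2 stood at 4.12, 4.59 and 5.53 FPKM and 4.20, 4.43 and 4.72. Chd6 stood at 2.42, 2.49 and 2.89 FPKM and 2.43, 2.23 and 2.35. In both genes FGSC replicate 3 was the highest library. Chd9 stood at 1.72, 1.85 and 2.02 FPKM and 1.67, 1.70 and 1.66, without overlap. Chd1l (ALC1), which is recruited by poly(ADP-ribose) at DNA damage, stood at 11.5, 13.5 and 11.3 FPKM and 12.4, 12.2 and 11.95, and FGSC replicate 2 lay above all others. After quantile normalization Chd6 and Chd9 were called lower (adjusted p = 0.0253 and 0.0295).

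INO80 removes and exchanges histone H2A.Z at promoters and replication forks. All 9 genes of its list passed the filter, with 3 higher and 1 lower. The share called was 44.4%, against 65.1% over all genes tested. The ATPase Ino80 stood at 6.14, 6.40 and 6.29 FPKM in FGSC and 6.54, 6.70 and 6.89 in Dif-FGSC. Its groups did not overlap, but the difference of 1.07 times was not called (limma adjusted p = 0.0929). Ino80d rose from 0.954, 0.904 and 0.835 FPKM to 2.08, 2.09 and 2.03, or 2.30 times (log2 difference 0.69 ± 0.051 SE, limma adjusted p = 1.98e-05). Its antisense gene Ino80dos was listed at 0 in every library, and the sources used here do not give the strand setting of the counting, so reads of the pair cannot be told apart.

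Ino80e rose from 59.4, 58.3 and 58.2 FPKM to 72.5, 72.7 and 76.9 (log2 difference 0.33 ± 0.032 SE, limma adjusted p = 7.61e-05). Actr5 (ARP5), the actin-related subunit needed for remodeling, rose from 9.31, 10.1 and 8.63 FPKM to 12.3, 12.2 and 11.2 (log2 difference 0.32 ± 0.061 SE, limma adjusted p = 0.00249). Neither overlapped. Actr8, Ino80b and Ino80c stood at 1.08, 1.05 and 1.01 times their FGSC means and were not called.

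Ruvbl1 and Ruvbl2 form the ATPase ring that INO80 shares with SRCAP, TIP60 and chaperone complexes. Ruvbl2 fell from 187, 197 and 189 FPKM to 167, 171 and 163 (log2 difference -0.19 ± 0.030 SE, limma adjusted p = 0.000935). Ruvbl1 stood at 148 ± 3.17 and 149 ± 5.07 FPKM (SD, n = 3) and was not called. The 2 proteins alternate in the ring, and their RNA came closer to even: Ruvbl2 made up 55.5%, 56.8% and 56.7% of the pair in FGSC and 53.4%, 53.7% and 51.2% in Dif-FGSC. With Ruvbl2 lower and 3 subunits higher, the INO80 list summed to 481 ± 7.69 and 482 ± 2.61 FPKM. Most of this sum was Ruvbl1 and Ruvbl2, at means of 148 and 191 FPKM in FGSC. A sum without them was not made, so the total says little of the other INO80 genes.

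**Figure D3:**
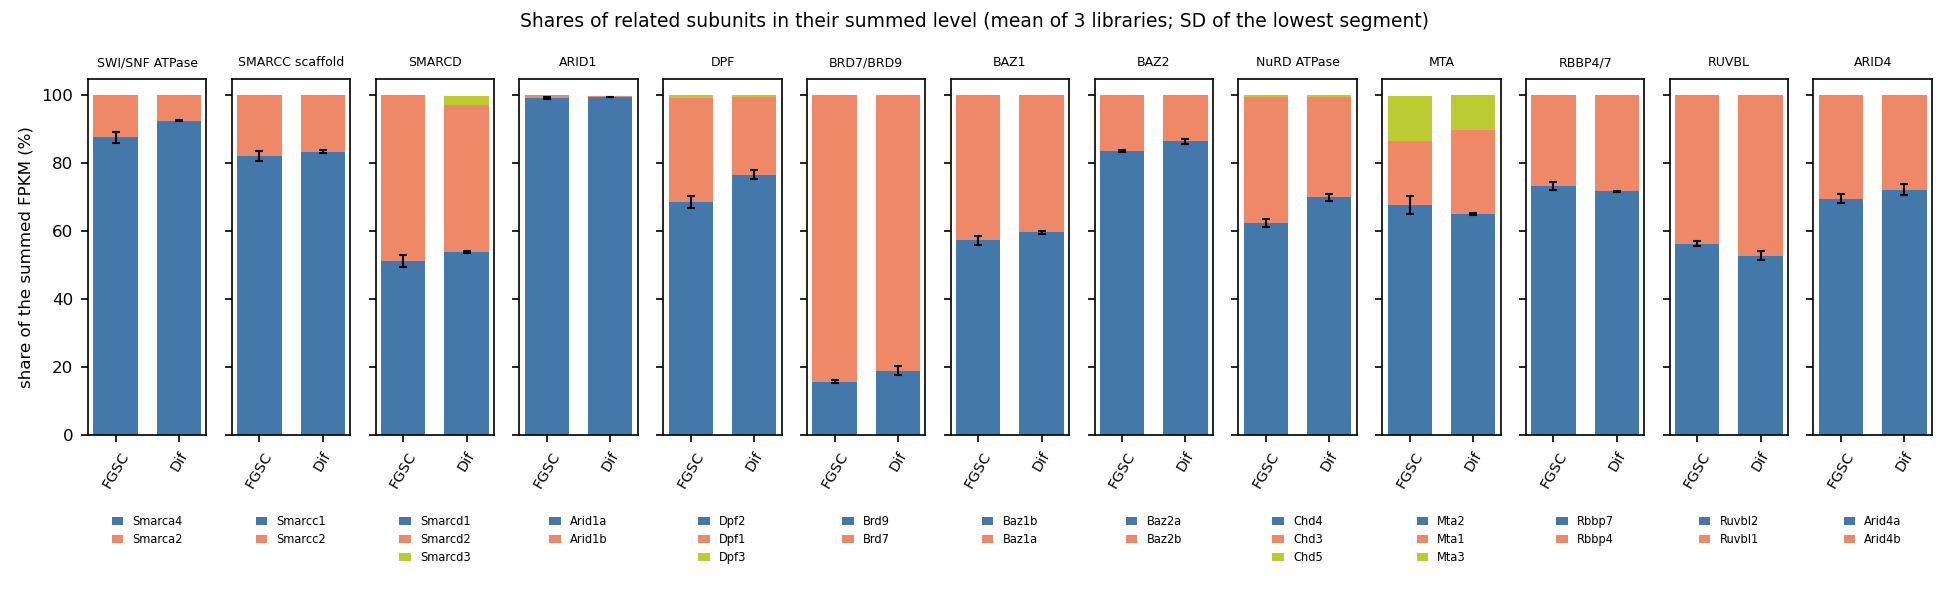
Share of each gene in the summed FPKM of related subunits (percent, vertical axis), as stacked means of 3 FGSC and 3 Dif-FGSC libraries, with the SD of the lowest segment. Chd4 goes from 62.5% to 70.0% of the NuRD ATPases and Dpf2 from 68.7% to 76.7% of the Dpf genes, while Arid1a stays above 98% of its pair.

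Several ATPases of the SNF2 family act without a large complex, and this list held both genes called lower by at least 0.5. Atrx, which loads histone H3.3 at telomeres and repeats with DAXX, fell from 16.1, 14.5 and 17.6 FPKM in FGSC to 9.34, 9.25 and 9.94 in Dif-FGSC. Every Dif-FGSC library lay well below the lowest FGSC library, and the mean was 0.592 times that of FGSC (log2 difference -0.70 ± 0.067 SE, limma adjusted p = 7.21e-05). Hells (LSH), which helps to methylate DNA at repeats and is abundant in dividing cells, fell from 60.6, 58.5 and 62.9 FPKM to 42.4, 42.0 and 42.9, or to 0.699 times (log2 difference -0.51 ± 0.034 SE, limma adjusted p = 1.24e-05). Both calls held in all 14 alternatives. Beside them, the proliferation genes Mki67 and Pcna were lower too, Mki67 at 57.6 ± 8.42 and 25.4 ± 0.358 FPKM and Pcna at 315 ± 5.96 and 232 ± 3.91, while Cdk1 and Plk1 were higher. The part of proliferation in the falls was not tested.

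Smarcad1, which keeps heterochromatin through replication, stood at 3.08, 3.01 and 3.15 FPKM and 2.77, 2.69 and 2.87, without overlap and with an adjusted p just above the threshold (limma, 0.0557). Both other scalings put it under the threshold (0.0223 and 0.00448). Smarcal1, which rewinds DNA at stalled forks, stood at 11.4, 12.1 and 12.3 FPKM and 12.1, 11.7 and 11.8 and was not called. The 4 genes summed to 91.8 ± 3.96 FPKM in FGSC and 66.5 ± 0.954 in Dif-FGSC, 27.5% less, and without Hells the sum was 22.4% less. Among the role lists, the ARID genes outside SWI/SNF were the other with a lower sum in every Dif-FGSC library. With median-ratio scaling these remained the lists with lower sums, joined by the INO80 list, whose sum is mostly Ruvbl1 and Ruvbl2.

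The ARID genes outside SWI/SNF encode DNA-binding proteins, of which Arid4a and Arid4b belong to the Sin3 deacetylase complex. Arid4a fell from 7.49, 6.85 and 7.37 FPKM to 6.31, 5.92 and 5.90 (log2 difference -0.22 ± 0.047 SE, limma adjusted p = 0.00393). Arid4b fell from 3.34, 2.78 and 3.40 FPKM to 2.26, 2.22 and 2.49 (log2 difference -0.33 ± 0.071 SE, limma adjusted p = 0.00471). The pair fell together, with no overlap in either gene. Arid5b rose from 1.64, 1.98 and 1.79 FPKM to 2.44, 2.04 and 2.197 (limma adjusted p = 0.0328), but lost its call in 9 of the 13 alternatives that tested it, both other scalings among them. Arid3b and Arid5a were not called, and Arid3a and Arid3c were below the filter.

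**Figure D4:**
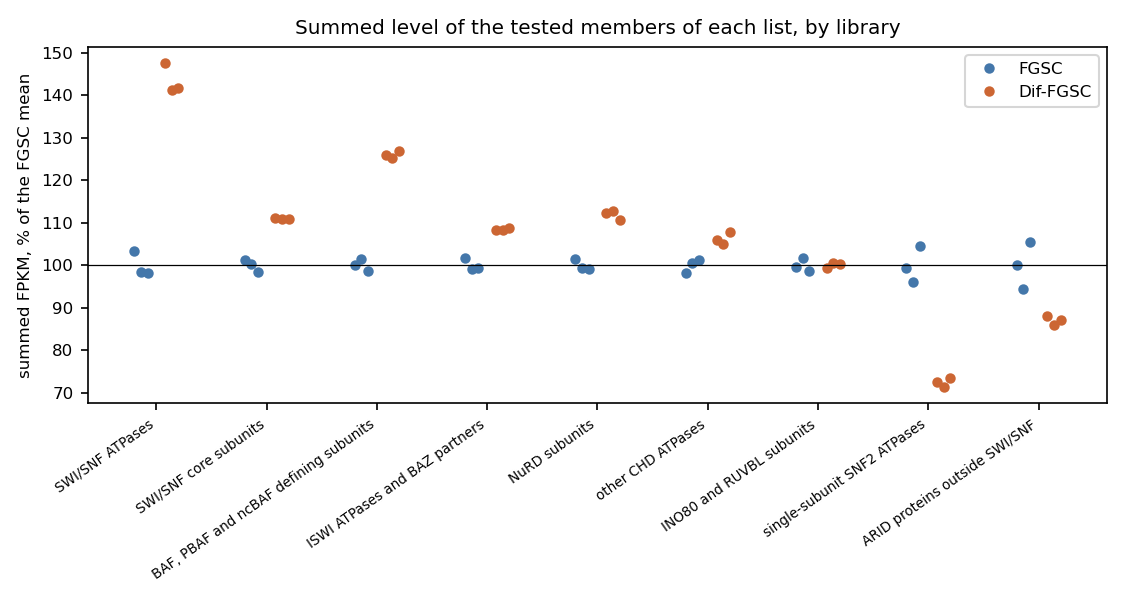
Summed FPKM of the tested genes of each role list in every library, as a percent of the FGSC mean (vertical axis), with FGSC in blue and Dif-FGSC in orange. The lists leave out partners with other names. The sums of the SWI/SNF and NuRD lists lie higher in every Dif-FGSC library. Those of the ATPases acting alone and of the other ARID genes lie lower. Those of the INO80 list, mostly Ruvbl1 and Ruvbl2, overlap.

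The calls nearest the threshold were lost when single libraries were left out. Such a fit also has fewer libraries, and 57.8% to 65.1% of all genes tested were then called, against 65.1% with every library. Whether a loss came from the library or from the smaller group was not tested. The call of Smarca5 was lost without FGSC replicate 1 or 2 or Dif-FGSC replicate 1 or 2 (adjusted p 0.0604 to 0.145). Actl6a lost its call without FGSC replicate 2 or 3 or any Dif-FGSC library (0.0903 to 0.132), and Chd3 without FGSC replicate 1 or 2 or Dif-FGSC replicate 2 or 3 (0.0931 to 0.114). For Arid5b these were FGSC replicates 1 and 3 and Dif-FGSC replicates 1 and 3 (0.0631 to 0.112). Brd9 lost its call without FGSC replicate 1 or 3 or Dif-FGSC replicate 2, and Smarce1 without FGSC replicate 1 or any Dif-FGSC library, with adjusted p up to 0.535 and 0.0836 over all alternatives.

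Across families the 17 tested ATPase genes went in both directions, 5 higher (Smarca4, Chd3, Chd4, Chd7 and Chd8), 3 lower (Smarca5, Atrx and Hells) and 9 not called. Of the 17 genes 47.1% were called, against 65.1% over all genes tested. The sum of the 17 was 275 ± 5.26 FPKM in FGSC and 280 ± 3.12 in Dif-FGSC, with overlap. The list holds only the SNF2-type ATPases that the rule matched. Those described with the partners, Srcap, Ep400 and Rad54l2 among them, are not counted or summed here. Nor are Ruvbl1 and Ruvbl2, which stood higher. By the deposited values Hells had the highest mean of the list in FGSC and Chd4 in Dif-FGSC. Chd4 is among the genes whose level may be understated, as described below, so its place below Hells in FGSC is uncertain.

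Of the 10 remodeler genes below the filter, Actl6b and Ino80dos were at 0 in every library. Arid1b, Arid3a, Arid3c, Chd5, Dpf3, Smarca1 and Smarca5-ps stayed below 1 FPKM in every library. Smarcd3, described above, was the only one of the 10 to pass 1 FPKM in a library.

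Many values of the table carry more digits than Cufflinks writes. A value with more than 6 significant digits occurred in at least 1 library for 19 of the 54 tested genes and for 38.8% of all genes tested. Averaging several entries of a symbol would give such values, but no such step is described in the sources used here. Where a value is such a mean, the level of the gene is lower than the sum of its transcripts, so the shares above are uncertain in level for Smarca4, Smarca2, Smarcc2, Smarcd2, Dpf2, Dpf3, Brd9, Chd4, Chd5, Mta1, Mta3 and Arid4b. Sums over lists that hold such genes are uncertain as well. A factor that is equal in both groups does not change a gene's fold, but it changes the weight of the gene in a sum. Of the 6 genes with a called rise of at least 0.5, 4 are of this kind (Smarca4, Chd4, Mta1 and Ino80d), while Arid1a and Smarcc1 are not, nor are Atrx and Hells.

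Genes with other names were described from a list of 41, called partners here. Most were listed by membership of the same or related complexes. Ercc6, Hltf, Shprh, Btaf1, Rad54l, Rad54l2 and Ttf2 are instead further ATPases of the SNF2 family. Of the 41 genes 38 were tested, and 17 were higher, 11 lower and 10 not called. That is 44.7% higher and 28.9% lower, against 36.5% and 28.6% over all genes tested. Median-ratio scaling gave 13 partners higher and 13 lower, and quantile normalization 12 and 14, so the balance of directions depended on scaling here too. The NuRD bridging proteins rose with Chd4: Gatad2a from 12.5, 11.6 and 11.5 FPKM to 18.1, 17.8 and 17.6 (log2 difference 0.55 ± 0.040 SE, limma adjusted p = 1.86e-05), and Gatad2b from 10.7, 9.87 and 11.2 FPKM to 15.7, 14.2 and 15.9. The deacetylase Hdac2 of the same complex fell from 73.4, 70.6 and 69.1 FPKM to 55.1, 54.8 and 55.1 (log2 difference -0.36 ± 0.030 SE, limma adjusted p = 3.72e-05), and Hdac1 fell as well, to 0.872 times its FGSC mean. Both deacetylases also serve other complexes. Of the other NuRD partners, Cdk2ap1 fell to 0.882 times its FGSC mean (limma adjusted p = 0.00708) and Mbd2, which replaces Mbd3, was not called.

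Srcap, the ATPase that deposits H2A.Z, rose from 11.9, 11.9 and 12.7 FPKM to 20.2, 19.9 and 19.7, or 1.64 times (log2 difference 0.67 ± 0.036 SE, limma adjusted p = 5.01e-06). Chrac1, a small histone-fold partner of Smarca5, rose from 23.5, 24.9 and 27.0 FPKM to 39.2, 43.1 and 39.8 (limma adjusted p = 3.84e-05), while Pole3, with which it pairs, fell to 0.894 times (limma adjusted p = 0.0194, and 0.00469 to 0.0582 over the alternatives). Rad54l2 (ARIP4), an ATPase that binds steroid receptors, rose from 6.81, 6.26 and 6.33 FPKM to 11.0, 10.8 and 10.3. Bcl7b, a SWI/SNF subunit, rose from 14.5, 14.8 and 15.6 FPKM to 21.7, 20.5 and 21.2. Rad54l, the recombination ATPase, fell from 6.01, 6.07 and 6.54 FPKM to 4.09, 4.74 and 4.56 (limma adjusted p = 0.000579). The groups of all these genes were apart. Of the other SWI/SNF partners, Bcl7a, Bcl7c and Bicral were called higher, and Ss18l1 and Bicra were not called. Ss18 fell to 0.878 times its FGSC mean (limma adjusted p = 0.00317) and Phf10 to 0.884 times (limma adjusted p = 0.0303). The calls of Bcl7a, Bcl7c and Phf10 did not hold in every alternative (adjusted p up to 0.173, 0.133 and 0.0937). Daxx, the partner of Atrx, rose to 1.21 times its FGSC mean (limma adjusted p = 0.00835, and up to 0.085 under the alternatives) while Atrx fell.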

How the data were processed

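RNA of 3 FGSC and 3 Dif-FGSC libraries was extracted with Trizol and made into libraries with a stranded mRNA kit, per the labels' protocols. Values are FPKM as the authors deposited them, and the submitters' processing notes name HISAT2 4.8.2, Cufflinks 2.2.1 and mm9, with no further settings. The table had 24674 rows, and for each of 2 repeated symbols only the row of higher mean entered. Another 26 symbols had been turned into calendar dates and match no remodeler gene. Genes with a mean of at least 1 FPKM (9162) were tested as log2(FPKM + 1) with limma 3.58.1 in R 4.3.3 (moderated, with trend, Benjamini-Hochberg adjustment, threshold 0.05), after the step was tested on simulated data. Shares were compared with a two-sided exact permutation test. The depth was estimated from steps of low values in 3745 genes with a single transcript, where 75.4% to 79.8% of low values came to a whole fragment number (tolerance 0.1), against 20% for random values. The alternatives were another pseudocount (0.1), no filter, a filter at 5 FPKM, median-ratio scaling, quantile normalization, a replicate block, limma without trend and each library left out, and, chosen after seeing the data, genes of at most 6 digits and sums without Arid1a or Hells. The members and gene lists were chosen with earlier results of these data known. Values in every library are given for the up to 4 called genes of each list with the largest difference and a mean of at least 2 FPKM, for every tested ATPase, for genes at 0 in some libraries and at 1 FPKM or more in others, for leading paralogs and for the 8 called partners with the largest difference. Other genes named in the text were chosen after their values were seen.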

Additional observations from a re-analysis of the deposited data

How the results depend on the processing

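No called remodeler gene changed direction under an alternative. The count of remodeler genes called lower went from 10 to 16 after quantile normalization. With genes of at most 6 digits alone, fewer genes were tested. Then 11 remodeler genes were called higher and 9 lower, and 11 partners higher and 6 lower. In the main fit, 52.6% of the tested remodeler genes of over 6 digits were higher and 5.26% lower. Among those of at most 6 digits the shares were 34.3% and 25.7%, and over all genes tested 36.5% and 28.6%. With median-ratio scaling the differences of summed FPKM (Dif-FGSC minus FGSC) were 61.5 for all remodeler genes, 18.2 for the SWI/SNF core, 25.1 for the defining subunits, 47.9 for SWI/SNF together, 7.64 for ISWI, 45.4 for NuRD, 2.41 for the other CHD genes, -12.1 for INO80, -2.60 for the ATPase genes, 64.1 for the genes outside the ATPases and -35.1 for the partners. Without Arid1a they were 76.0 for all remodeler genes, 0.228 for the defining subunits and 29.3 for SWI/SNF, and without Hells -6.97 for the ATPases acting alone. Leaving out each library in turn gave 20 to 21 remodeler genes called higher and 7 to 10 lower. With a replicate block 21 were higher and 7 lower, and Actl6a, Arid5b, Smarca5 and Smarce1 were not called. The correlations of deviations from the group means were 0.13, 0.01 and 0.17 between libraries of the same number. Between libraries of different numbers they ran from -0.22 to 0.11, and not every library correlated best with its own number. Deviations from a mean of 3 libraries depend on each other, so these values cannot decide whether the numbers pair the libraries. The main fit left pairing out because no label states it. The causes were not tested. Where a gene lies below 1 FPKM, depth limits what can be said of it.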
